A study of Sus scrofa with 41 samples.

Results

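The heat shock proteins and DNAJ co-chaperones were followed in the psoas major muscle of 41 finishing pigs. Members were all genes whose pig Ensembl symbol begins with HSPA, HSPB, HSPD, HSPE or HSPH and a number, with HSP90, or with DNAJA, DNAJB or DNAJC and a number. The rule found 60 members among the 25880 genes of the files, of which 14857 have a symbol. They are 21 heat shock protein genes (10 HSPA, 5 HSPB, 3 HSP90 and 1 each of HSPD, HSPE and HSPH) and 39 DNAJ genes (4 DNAJA, 10 DNAJB and 25 DNAJC). The inducible genes HSPA1A and HSPA1B, the genes HSPA2 and HSPB2, and 3 further symbols of the name table (HSPA6, HSPB7 and DNAJC30) had no gene with that symbol in the files and were not analysed here.

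The pigs were uncastrated males of the breeds Danbred_Duroc (Duroc, 13 pigs) and Danbred_Landrace (Landrace, 28 pigs), which had free access to feed and were slaughtered at about the same weight. Polyadenylated RNA was sequenced from muscle taken right after slaughter, with 1 library for each pig. Age at sampling ran from 131 to 156 days in Duroc (median 148) and from 147 to 166 days in Landrace (median 154.5), so the breeds differed in age. The feed conversion ratio (FCR) ran from 1.83 to 2.18 in Duroc (median 1.94) and from 1.92 to 2.25 in Landrace (median 2.10), values that fit feed eaten per weight gained, so a lower value marks a more efficient pig. The RNA integrity number (RIN), which falls as RNA breaks down, ran from 6.5 to 8.8. The 5 slaughter batches held 1, 15, 9, 5 and 11 pigs, and the single pig of batch 1 was a Duroc. Batches 2 to 5 held 3, 2, 3 and 4 Duroc and 12, 7, 2 and 7 Landrace, so a breed difference within a batch rests on as few as 2 pigs of a breed. No pig was treated or heated, so the comparisons are between breeds, batches, RIN, ages and FCR of untreated animals.

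Heat shock proteins are molecular chaperones that hold, fold or refold other proteins. HSP70 proteins (the HSPA genes) bind and release unfolded chains in a cycle driven by ATP, DNAJ proteins bring them their clients and start that cycle, and HSP110 proteins (HSPH1, HSPA4 and HSPA4L) reset it by exchanging the nucleotide. HSP90 proteins finish the folding of kinases, receptors and, in muscle, myosin, while the small heat shock proteins (the HSPB genes) keep filament and cytoskeletal proteins from clumping. Heat, exercise and damaged protein raise many of these genes through the transcription factor HSF1, and a separate set serves the endoplasmic reticulum (ER).

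The files held 22188911 to 25954816 counts on genes for each pig (median 25243577), and the members took 0.269% to 0.642% of them (median 0.416%). Of the 60 members, 54 passed the filter on low counts and entered the tests. The other 6 were HSPA1L (5 to 29 counts per pig), DNAJB13, DNAJC22, DNAJC5B, HSPB6 and HSPB9. Markers of skeletal muscle (5 of the 7 listed were found, among them the creatine kinase gene CKM) summed to between 116695 and 220874 CPM (counts scaled to library size) in every pig, so the tissue label held in each library. All levels below are CPM scaled by TMM factors, and a fold change is the coefficient of a joint model with FCR, RIN, age, breed and batch, with its standard error (SE). FDR stands for the Benjamini-Hochberg adjusted p of the quasi-likelihood test of edgeR over all 11146 genes tested, and a gene was called at an FDR below 0.1.

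Few genes made up most of the chaperone counts. In the unstranded counts HSPB8 (ENSSSCG00000009844), a small heat shock protein that works with BAG3 in clearing damaged filament proteins from muscle, took 24.4% of all member counts. HSPA8, the constitutive cytosolic HSP70, took 16.4%, HSP90AA1, the more inducible cytosolic HSP90, took 9.88% and HSPB1, also known as HSP27, took 8.92%. With DNAJB5, HSP90AB1 and DNAJB6, 7 genes held 74.1% of the unstranded member counts. The order and the shares depend on how pairs on overlapping genes are counted: in the sum of the strand columns of the same files HSPB6 came first with 21.9% of the member total, in pairs that it shares with the gene LIN37, followed by HSPB8 (16.4%), HSPB1 (14.1%) and HSPA8 (11.0%), and the first 7 genes held 78.4%. Both kinds of share count read pairs and do not take gene length into account.

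The 54 tested members varied less between pigs than the tested genes at large in the middle of their distribution, with a median standard deviation (SD) of log2 CPM of 0.274 against 0.345 for all tested genes. A few of them stood far above that. HSPB1 had an SD of 0.792 and differed 16.3-fold between the lowest pig (128 CPM) and the highest (2093 CPM). That highest pig had a RIN of 6.5, and no other pig was above 1043 CPM. Among the tested members HSPB1 was followed by DNAJC28 (SD 0.768), HSPA12A (0.740), DNAJB1 (0.702), DNAJB4 (0.628), DNAJA4 (0.610) and HSPB8 (0.586). Among the tested heat shock protein genes the smallest SDs were those of HSPA9, the mitochondrial HSP70 (0.164), and HSPD1, the mitochondrial chaperonin (0.167), and 5 DNAJ genes varied less, DNAJB12 the least (0.142). HSPD1 ran from 40.9 to 76.6 CPM over all pigs and HSPA9 from 89.4 to 150 CPM.

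The first comparison asked which chaperone genes differed between the breeds. At the same FCR, RIN, age and batch, 17 of the 54 tested members (31.5%) were called, with Landrace above Duroc in 7 and under it in 10. Over all tested genes 33.1% were called, 15.6% higher and 17.5% lower, so the share among the members was close to the background. The HSP70 family gave 5 of its 9 tested genes, all of them lower in Landrace (HSPA12A, HSPA12B, HSPA5, HSPA4L and HSPA13). In bulk muscle, fewer cells of a type and less RNA per cell cannot be told apart. The plot of breed coefficients gives every tested member.

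**Figure D1:**
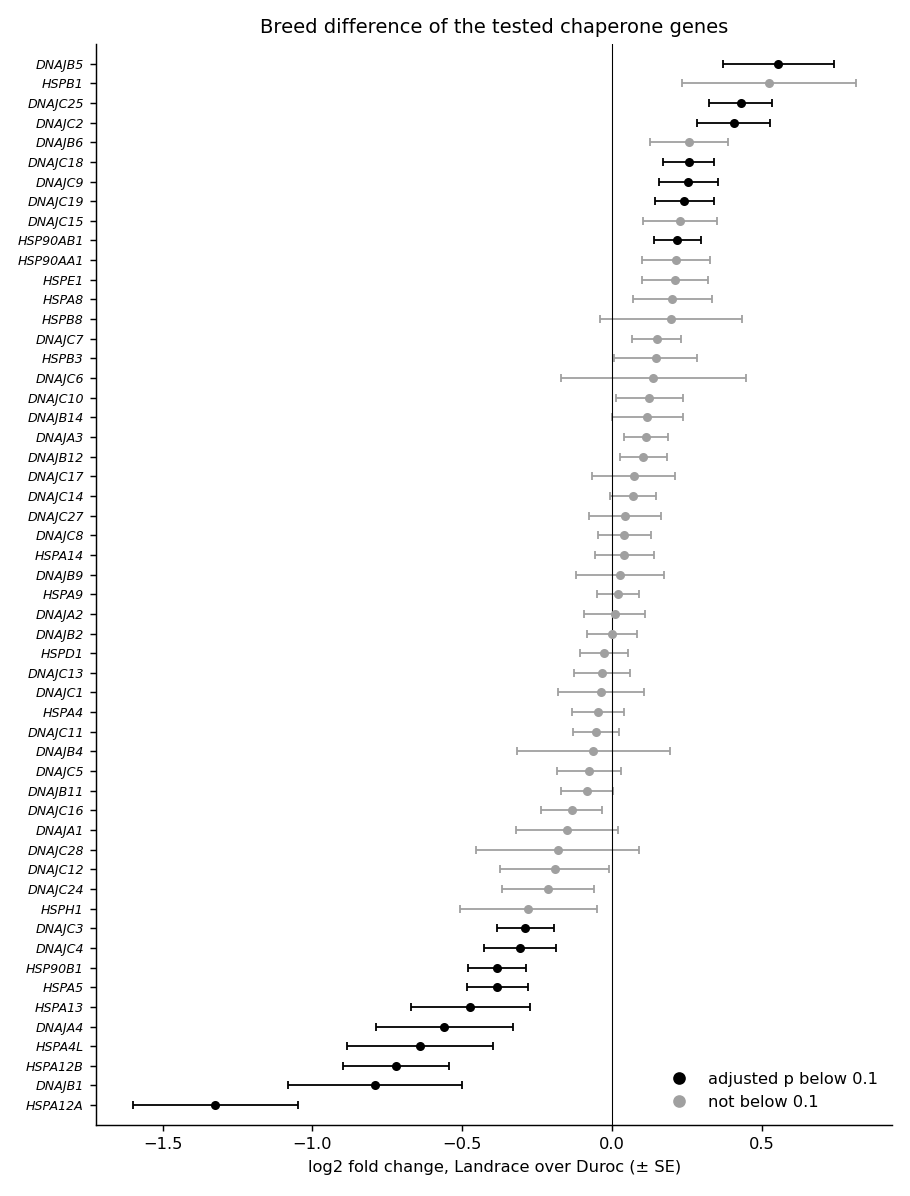
Breed coefficient of the joint model (log2, Landrace over Duroc, horizontal axis) for the 54 tested members, each with its SE; black points have an adjusted p below 0.1. The 10 black points on the left run from HSPA12A at -1.32 to DNAJC3 at -0.29, and the 7 on the right reach 0.55 for DNAJB5.

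HSPA12A (ENSSSCG00000036758), a distant relative of HSP70, had the largest breed coefficient among the members. It ran from 0.474 to 4.79 CPM in Duroc (median 1.63) and from 0.497 to 2.39 CPM in Landrace (median 1.31). The ranges overlapped, and Duroc replicates 5 (3.61 CPM) and 6 (4.79 CPM) lay above every Landrace pig. The joint coefficient was -1.32 ± 0.28 on the log2 scale (SE, FDR 0.000732), while the plain difference of the breed means of log2 CPM was -0.42. Within batches 2 to 5 the plain difference was 0.04, -0.41, -0.92 and -1.34, so it was near 0 in the batch with the most pigs. Without age in the model the coefficient was -0.94.

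HSPA12B (ENSSSCG00000007147), the other gene of that pair and known from endothelial cells, ran from 4.82 to 10.4 CPM in Duroc (median 8.29) and from 3.81 to 12.1 CPM in Landrace (median 7.04). Most of both ranges was shared. Its coefficient was -0.72 ± 0.18 (FDR 0.00301), against a plain difference of -0.17, and within batches 2 to 5 the difference was 0.00, 0.12, -0.73 and -0.70. With the sum of the strand columns, which held 31304 counts of this gene against 7902 unstranded ones, the coefficient was -0.36 ± 0.08 (FDR 0.00176). Endothelial markers moved the same way: 4 of the 5 found were called lower in Landrace (17.5% of all genes), with a median coefficient of -0.95, and their summed level ran from 57.8 to 171 CPM in Duroc (median 130) and from 31.5 to 146 CPM in Landrace (median 90.8). None of the 5 was at 0 in all pigs, and their part in the HSPA12B result was not tested.

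Among the chaperones of the ER, 5 of 10 were called, 4 lower and 1 higher in Landrace, beside 33.1% of all genes called, 17.5% lower and 15.6% higher. HSPA5, the ER HSP70 known as BiP, ran from 36.6 to 60.2 CPM in Duroc (median 48.4) and from 26.6 to 56.3 CPM in Landrace (median 42.0), with a coefficient of -0.38 ± 0.10 (FDR 0.00588). HSP90B1, the ER HSP90, ran from 34.6 to 63.1 CPM in Duroc (median 43.6) and from 27.6 to 57.2 CPM in Landrace (median 40.9), with a coefficient of -0.38 ± 0.10 (FDR 0.00409). Both sets of ranges overlapped for most of their length. For HSPA5 the within-batch differences were -0.02, 0.07, -0.32 and -0.58, and for HSP90B1 they were 0.04, 0.03, -0.26 and -0.43, so in both genes batches 4 and 5 carried the lower level. DNAJC3, a DNAJ protein of the ER lumen that also restrains the kinase PERK, had a coefficient of -0.29 ± 0.09 (FDR 0.0221) and was lower in Landrace in all 4 of those batches. HSPA13 fell too (-0.47 ± 0.20, FDR 0.0754), and DNAJC25 rose (0.43 ± 0.10, FDR 0.00320).

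Genes that assist or share the ER with these members were counted from a fixed list. Of 11 other ER stress genes tested, 4 were called lower in Landrace and none higher (17.5% and 15.6% of all genes), namely CALR (-0.38), SEL1L (-0.32), PDIA3 (-0.32) and PDIA6 (-0.28). The list of other co-chaperones held HYOU1, the ER nucleotide exchange factor (-0.50, FDR 0.000100), and SIL1, another exchange factor for HSPA5 (-0.41, FDR 0.00184). Most called genes of that list went the other way, with 13 higher and 6 lower in Landrace among 35 tested. The median coefficient of the 11 ER stress genes was -0.12, against -0.00 for all genes tested. These FDR values are from the same edgeR fit.

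DNAJB1 (ENSSSCG00000013784), the main heat-inducible partner of cytosolic HSP70, ran from 10.3 to 91.7 CPM in Duroc (median 32.3) and from 17.1 to 68.9 CPM in Landrace (median 30.2). The Duroc pigs held both the lowest and the highest level. The joint coefficient was -0.79 ± 0.29 (FDR 0.0407), yet the plain difference was only -0.03, and the within-batch differences were 0.02, -0.14, -0.29 and -0.64. DNAJA4, a cytosolic DNAJ protein, ran from 14.0 to 54.1 CPM in Duroc (median 27.2) and from 10.2 to 58.9 CPM in Landrace (median 21.5), with a coefficient of -0.56 ± 0.23 (FDR 0.0666) and a plain difference of -0.48. It was lower in Landrace in all 4 batches that held both breeds, of which batch 3 had 2 Duroc pigs and batch 4 had 2 Landrace pigs.

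DNAJB5, a cytosolic DNAJ protein of striated muscle, was the most changed of the genes that rose. It ran from 114 to 407 CPM in Duroc (median 174) and from 118 to 517 CPM in Landrace (median 244). The ranges were nearly the same at the bottom, and the median was higher in Landrace. The coefficient was 0.55 ± 0.19 (FDR 0.0259) and the plain difference 0.31, with Landrace higher in all 4 batches. HSP90AB1, the constitutive cytosolic HSP90, had a coefficient of 0.22 ± 0.08 (FDR 0.0366) with medians of 195 CPM in Duroc and 204 CPM in Landrace and a plain difference of 0.02.

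The other risers were DNAJC genes. DNAJC2, which acts with HSPA14 on the chain leaving the ribosome, ran from 12.5 to 38.7 CPM in Duroc (median 16.4) and from 15.6 to 50.0 CPM in Landrace (median 19.5). Its coefficient was 0.40 ± 0.12 (FDR 0.0128), and Landrace was higher in all 4 batches by 0.34 to 0.43. DNAJC25 ran from 2.83 to 4.45 CPM in Duroc (median 3.58) and from 2.57 to 6.03 CPM in Landrace (median 4.05), and its values lay mostly in the same range in both breeds. DNAJC9, a histone chaperone, DNAJC18 and DNAJC19, a part of the mitochondrial import motor, rose by 0.24 to 0.25 with FDR values of 0.0242 to 0.0655. DNAJC4 was lower in Landrace (-0.31 ± 0.12, FDR 0.0553), but in only 2 of 4 batches.

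**Figure D2:**
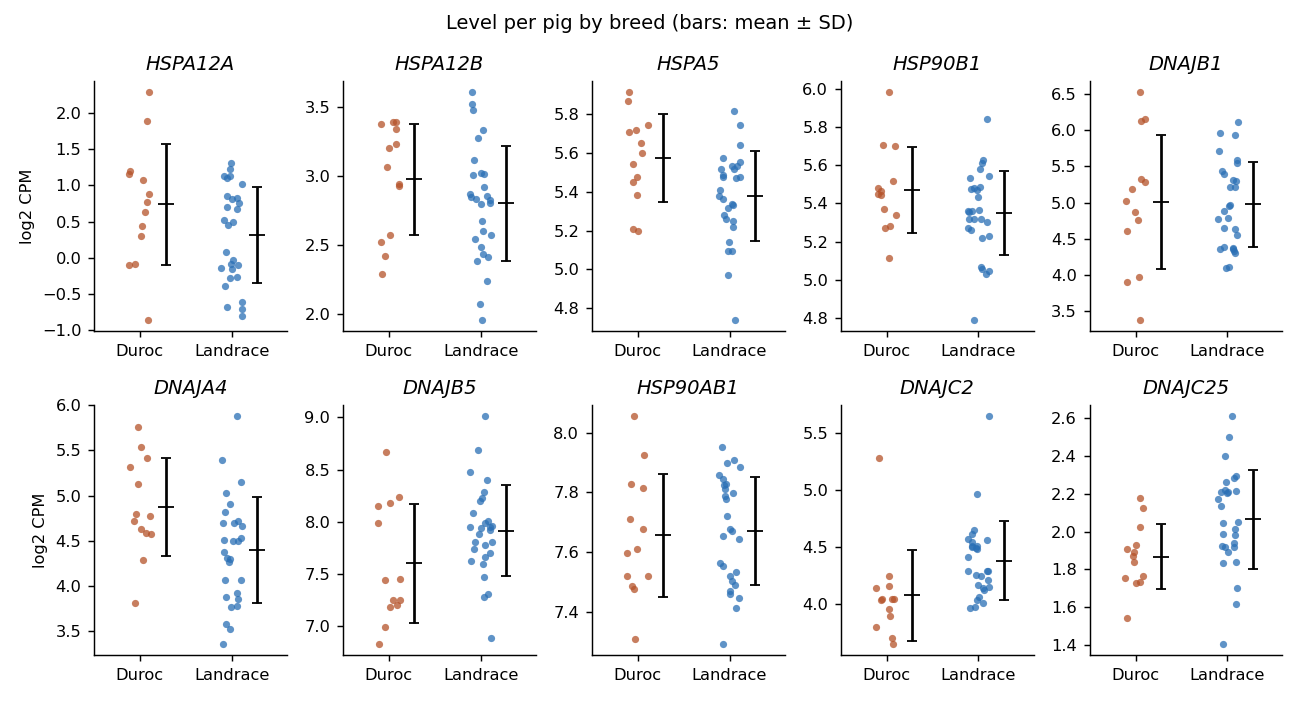
Level of 10 called members in each pig (log2 CPM, vertical axes) in Duroc (13 pigs) and Landrace (28 pigs), with mean ± SD beside the points. The breeds overlap in every panel, and the plain difference of the means is largest for DNAJA4 (-0.48) and HSPA12A (-0.42).

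All 17 called members had a plain breed difference in the direction of the joint coefficient, but it was at least 0.5 times as large in only 8 of the 17. The rest of the coefficient appeared only with the adjustment for age, FCR, RIN and batch. When the pigs were left out singly, between 11 and 19 members were called, the lowest number without Duroc replicate 5, and 9 of the 17 were called in all 41 fits. With library size as the only scaling, which moved the median coefficient of all genes from -0.00 to -0.18, 2 members were higher and 18 lower in Landrace. The median coefficient of the tested members was -0.15 there, and the share of all genes called in that fit is not given here. None of the 17 called members changed sign there, while 15 members that were not called did.

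The members without a call for breed included the most abundant ones. HSPB8 had medians of 1030 CPM in Duroc and 947 CPM in Landrace (coefficient 0.20 ± 0.24, FDR 0.579). HSPA8 had medians of 670 and 717 CPM (0.20 ± 0.13, FDR 0.278), and HSP90AA1 had medians of 392 and 435 CPM (0.21 ± 0.11, FDR 0.163). HSPB1 was higher in Landrace at the median (344 against 264 CPM) with a coefficient of 0.52 ± 0.29 (FDR 0.190). For these genes a breed difference was not detected at the spread between these pigs.

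HSF1 and BAG3 were read beside the members. HSF1, which turns on the heat shock genes, had medians of 8.28 CPM in Duroc and 8.75 CPM in Landrace and was not called (0.27, FDR 0.199). BAG3 had medians of 277 and 249 CPM (-0.19, FDR 0.497). The list of other co-chaperones also held the transcription factors HSF1, HSF2 and HSF4 and the small heat shock protein CRYAB. Of its 35 tested genes, 19 were called for breed, 13 higher and 6 lower in Landrace (15.6% and 17.5% of all genes). Among them were BAG1 (0.39), PTGES3 (0.36), the p23 co-chaperone of HSP90, the mitochondrial DNAJ-like protein HSCB (0.53) and HSF4 (0.51). The cytosolic chaperonin CCT had 3 of 7 genes called, all higher in Landrace (CCT2 0.35, CCT4 0.30 and CCT7 0.15, which was -0.03 with library size only), beside 15.6% of all genes. Skeletal muscle markers were called higher in 4 of 5 and slow-fibre markers lower in 2 of 6, and their part in the breed results was not tested.

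The second comparison concerned RIN, a measure of the sample and not of the pig. It was called for 29 of the 54 members (53.7%), 11 higher and 18 lower per unit of RIN, against 51.8% of all genes tested (23.9% higher and 27.9% lower). None of the 9 HSPA genes tested was called by edgeR for RIN, and 0 had an unadjusted p under 0.05. DESeq2, limma and the model without age called 1 each (HSPA13, HSPA8 and HSPA13), 3 were called with batch as a trend, 5 with the summed strand columns, 2 each with no filter and without the batch 1 pig, and 8 with library size only, so the count of 0 depended on the setting. Of the 23 DNAJC genes tested, 18 were called, 10 with more RNA integrity and 8 with less. With library size only the median coefficient of all genes moved from -0.01 to 0.30. The members had a median of 0.30 there and were called 30 times higher and 5 times lower. The share of all genes called in that fit is not given here. Directions below are thus relative to the bulk of genes.

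HSPB1 (ENSSSCG00000039962) fell with RIN, and its highest level was in the pig with the lowest RIN. It read 2093 CPM in the pig with RIN 6.5 and 684 CPM in the pig with RIN 6.6, both Landrace, against 128 to 1043 CPM (median 311) in the other 39 pigs. The first of these values lay above all other pigs, and the second was within their range. The coefficient was -1.07 ± 0.17 per unit of RIN (FDR 3.41e-06). It was -0.53 (FDR 0.0940) when both pigs with a RIN below 7 were left out. HSPB3, a small heat shock protein of muscle, fell by 0.50 ± 0.10 per unit (FDR 0.000107).

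DNAJC4 had the smallest p of all members for RIN. It read 17.4 and 23.2 CPM in the pigs with RIN 6.5 and 6.6 and 4.92 to 22.1 CPM (median 8.48) in the others. Its coefficient was -0.82 ± 0.09 (FDR 1.13e-08), it stayed at -0.71 without both low pigs, and it was -0.51 with library size only. DNAJC2 fell by 0.54 ± 0.09 per unit, DNAJC5, the cysteine string protein of secretory vesicles, by 0.50 ± 0.08, DNAJC8, which is linked to splicing, by 0.43 ± 0.07 and DNAJA2, a cytosolic partner of HSP70, by 0.42 ± 0.07, with FDR values of 2.83e-06 to 1.61e-05.

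Members of the opposite direction were fewer. DNAJC28 read 0.110 and 0.139 CPM in the pigs with RIN 6.5 and 6.6, below all of the other 39 (0.253 to 2.57 CPM, median 1.29), and rose by 1.01 per unit (FDR 0.00132). At such levels the counting error is large. DNAJC10, an ER reductase with a DNAJ domain, rose by 0.44 ± 0.09 (FDR 0.000170) and DNAJC13, an endosomal protein, by 0.39 ± 0.08 (FDR 7.59e-05). Without the pigs with a RIN below 7, DNAJC28 had a coefficient of 0.55 and was no longer called (edgeR FDR 0.125), while DNAJC10 (0.32, FDR 0.0349) and DNAJC13 (0.36, FDR 0.00953) were.

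**Figure D3:**
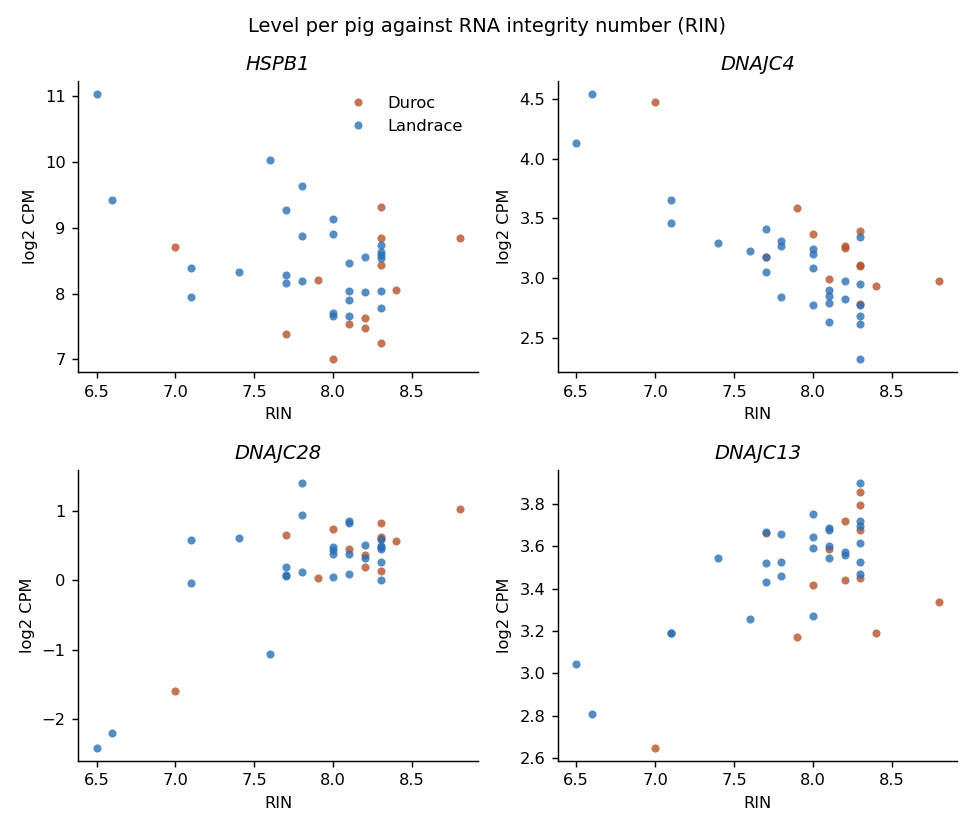
Level of 4 members (log2 CPM, vertical axes) against RIN (horizontal axes), with 1 point for each pig coloured by breed. HSPB1 and DNAJC4 fall and DNAJC28 and DNAJC13 rise with RIN, and both pigs with RIN 6.5 and 6.6 lie at the left edge.

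For RIN, 21 members instead of 29 were called without both low pigs. The share of all genes called in that fit is not given here, so the fall cannot be set against the genes at large. That fit also had fewer pigs and a narrower range of RIN. In the joint model of all pigs, 5 of 6 slow-fibre markers and 3 of 5 skeletal muscle markers were lower per unit of RIN. Of the fibroblast markers 3 of 5 were higher. The part of these markers in the RIN result was not tested. Outside the members CRYAB, the lens and muscle small heat shock protein, fell by 1.15 per unit (FDR 4.89e-08), HSF4 by 0.56 and the HSP90 co-chaperone CDC37 by 0.40. HSF1 rose by 0.28 (FDR 0.0578), and BAG3 was not called (-0.21, FDR 0.175).

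The third comparison was between slaughter batches, which share a day and its conditions. Batch was called for 21 of the 54 members (38.9%), against 24.1% of all genes tested. The heat shock protein genes gave 12 of 18 and the DNAJ genes 9 of 36. Of the 13 tested genes of a list of heat-inducible chaperones, 9 were called, and all 3 tested small heat shock protein genes were. The list was drawn up with earlier results of these data known, so these counts are a description. The batch term also covers the single pig of batch 1, and without that pig 19 members were called.

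HSPB8 ran from 951 to 2798 CPM in the 5 pigs of batch 4 (median 1501) and from 447 to 1030 CPM in the 11 pigs of batch 5 (median 731). Batches 2 and 3 lay between them with medians of 960 and 962 CPM, and the batch 1 pig read 1796 CPM. Batches 4 and 5 overlapped only between 951 and 1030 CPM. The batch term had an FDR of 0.00612.

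HSPH1, the inducible HSP110, ran from 13.9 to 37.5 CPM in batch 4 (median 24.6) and from 6.73 to 15.6 CPM in batch 5 (median 11.5), with 10.6 to 29.0 CPM (median 15.3) in batch 2 and up to 30.7 CPM (median 20.7) in batch 3 (FDR 0.0188). DNAJA4 ran from 25.8 to 54.1 CPM in batch 4 (median 39.7) and from 10.2 to 26.3 CPM in batch 5 (median 19.4), with an FDR of 0.00645. DNAJB4 had medians of 115 CPM in batch 4 and 55.9 CPM in batch 5 (FDR 0.0926). In all 4 genes batch 4 had a higher median than batches 2, 3 and 5, and batch 5 the lowest. These levels are not adjusted for breed, and 3 of the 5 pigs of batch 4 were Duroc, against 3 of 15 in batch 2, 2 of 9 in batch 3 and 4 of 11 in batch 5.

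HSPB1 had medians of 291, 460, 477 and 287 CPM in batches 2 to 5 (FDR 0.00322), with the pig of 2093 CPM in batch 2. DNAJB9, a DNAJ protein of the ER that answers unfolded protein, had the smallest p of the members for batch (FDR 0.00250). It ran from 16.7 to 46.5 CPM in batch 4 (median 29.3) and from 11.4 to 20.6 CPM in batch 5 (median 16.7), and its highest value was in Landrace replicate 24. That pig was also the highest of all in HSPB8 (2798 CPM) and DNAJB5 (517 CPM). DNAJB5 had medians of 220, 242, 302 and 158 CPM in batches 2 to 5 (FDR 0.00300), and HSP90AB1 had 204, 183, 238 and 205 CPM (FDR 0.00715).

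**Figure D4:**
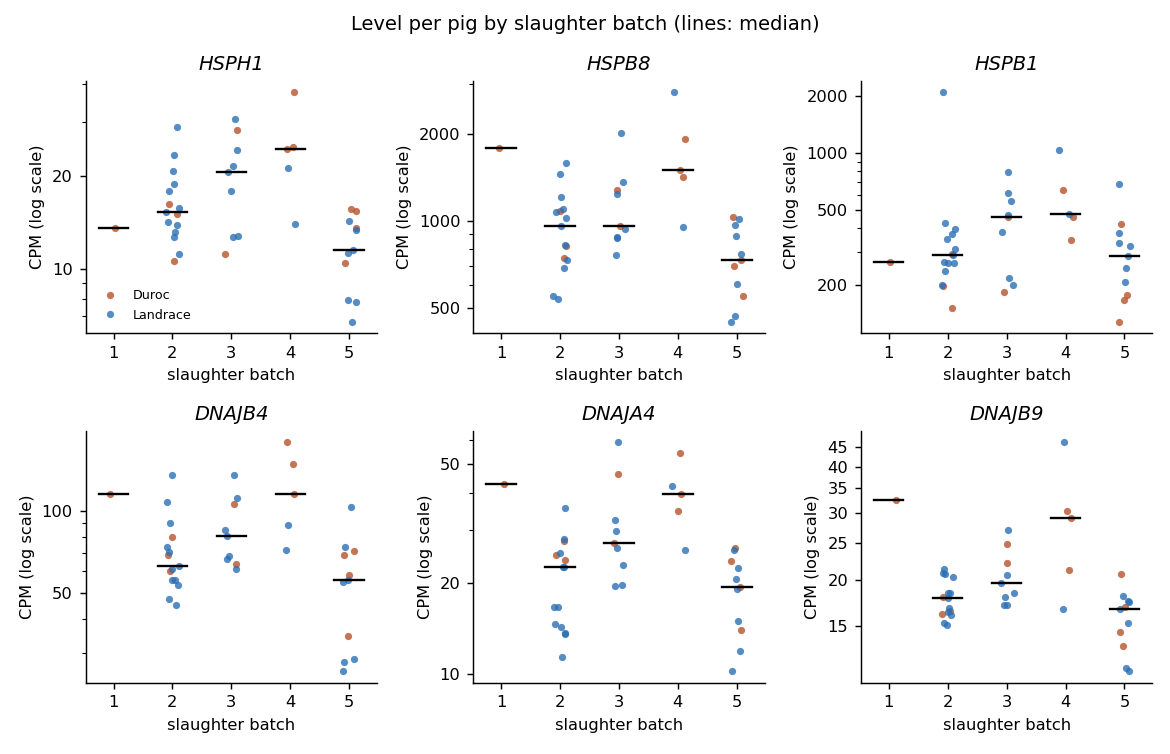
Level of 6 members (CPM, log scale) by slaughter batch, with 1 point for each pig coloured by breed and a line at the batch median. Batch 4 has the highest median of batches 2 to 5 in all 6 panels and batch 5 the lowest.

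The number of members called for batch depended on Landrace replicate 24. Without that pig of batch 4, 11 members were called for batch instead of 21, and 10 of the 21 were called in every one of the 41 fits that left out a pig. The share of all genes called without that pig is not given here, so the fall cannot be set against the genes at large. HSPA4, HSPA4L, HSPB3, DNAJB6, DNAJC24 and HSPA12A had their highest FDR (0.144 or above) without it. When batch entered as a trend over its numbers, only 6 members were called. The median RIN of the batches was 8.4, 8.1, 8.1, 8.3 and 7.7, and their median age 140, 149, 156, 148 and 156 days, so batch 5 had the lowest RIN. Age and RIN stood in the model beside batch, and batch cannot be told apart from other conditions of the slaughter day. Markers of cell types were called for batch as well, beside 24.1% of all genes: 4 of 8 leukocyte, 3 of 5 endothelial, 4 of 5 skeletal muscle and 1 of 5 fibroblast markers were called, and none of those tested for adipocytes (3), erythroid cells (2), satellite cells (3), fast fibres (4) or slow fibres (6). The summed level of the leukocyte markers had medians of 53.0, 30.0, 27.3 and 25.0 CPM in batches 2 to 5, with 15.3 to 56.9 CPM in batch 4 and 10.9 to 41.6 CPM in batch 5. The endothelial sum had medians of 99.6, 101, 61.9 and 82.1 CPM, with 58.5 to 152 CPM in batch 4 and 31.5 to 171 CPM in batch 5, and the skeletal muscle sum had medians of 144277, 151296, 158052 and 173673 CPM. The fast-fibre sum was highest at the median in batch 5 (27068 CPM, against 20539, 20409 and 21858 CPM in batches 2 to 4). The part of these markers in the batch result was not tested. Among the other genes, HSF2 (FDR 0.000201) and BAG3 (FDR 0.00227) were called for batch, while HSF1 was not (FDR 0.533). Of 10 immediate early genes 4 were called, against 24.1% of all genes, with ATF3 (FDR 0.0159) and EGR1 (FDR 0.0381) among them.

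Some pairs of heat-inducible members moved together from pig to pig, and others did not. The level of HSPH1 was set against each other tested gene of the list over all 41 pigs, and a pair of HSP90AA1 with HSPB1 and one of HSPD1 with HSPE1 were added after the data were seen, which made 14 pairs. The adjusted p-values are over all 14, and the 2 added pairs are given as a description, without a p. HSPH1 with DNAJA1, a cytosolic partner of HSP70, gave r = 0.81 and rho = 0.80, and HSPH1 with HSPA4 gave r = 0.82 and rho = 0.79 (both permutation p = 1e-05, the smallest that 100000 permutations can give, and adjusted p = 3.5e-05 for r and 4.7e-05 for rho). Without the 2 pigs farthest from the median of HSPH1, r was 0.79 and 0.77. Within batches 2, 3 and 5, r was 0.89, 0.74 and 0.76 for DNAJA1 and 0.57, 0.92 and 0.86 for HSPA4, so both pairs held within batches.

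HSP90AA1 with HSPB1, one of the added pairs, gave r = 0.80 and rho = 0.79, with 0.74 without the 2 farthest pigs and 0.88, 0.92 and 0.82 within batches 2, 3 and 5. Both genes fell with RIN, and after removal of FCR, RIN, age, breed and batch r was 0.72. With library size only r was 0.67 over all pigs and 0.24 in batch 5. HSPH1 with HSPB8 gave r = 0.62 and rho = 0.57 (permutation p = 4e-05 and 0.00017, adjusted p = 0.000112 and 0.000595), but r was 0.61, 0.70 and 0.08 within those batches and 0.67 without the 2 farthest pigs. HSPH1 with HSPB1 gave r = 0.45 and rho = 0.46 (permutation p = 0.0031 and 0.00317, adjusted p = 0.00542 and 0.00740), with 0.61 without the 2 farthest pigs and 0.67, 0.93 and -0.68 within batches 2, 3 and 5. The relation of HSPH1 with HSPB1 thus turned round in batch 5. After removal of FCR, RIN, age, breed and batch, r of that pair was 0.62 over all pigs and 0.14 in batch 5.

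**Figure D5:**
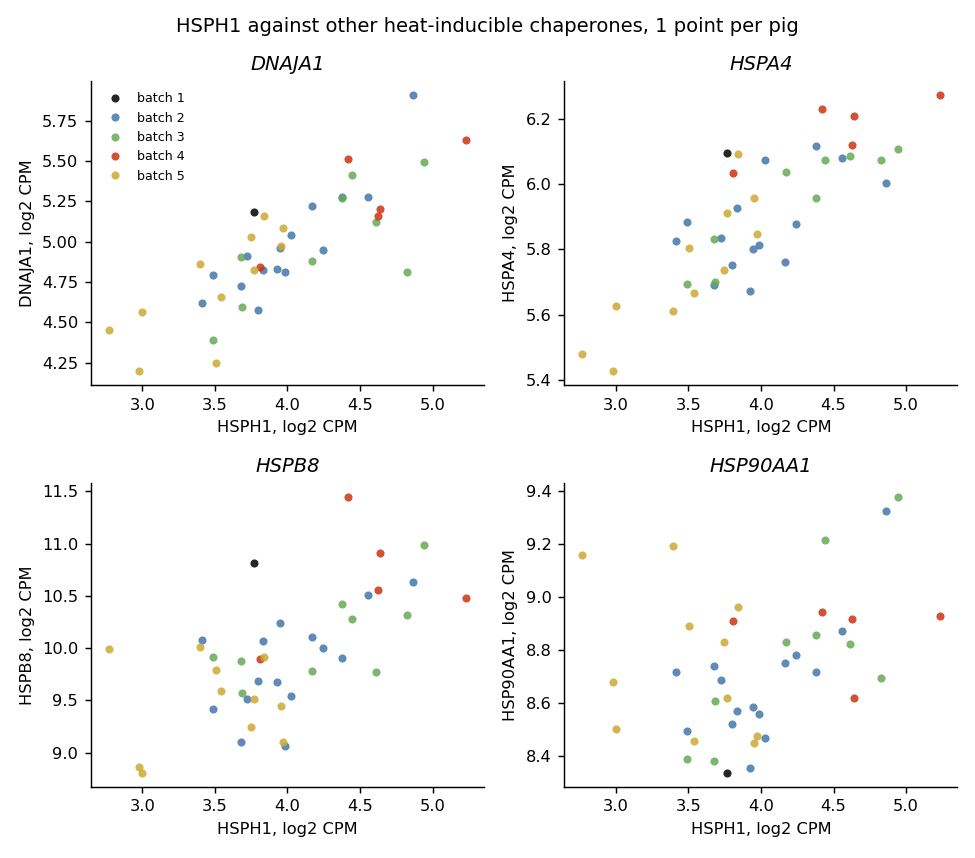
HSPH1 (log2 CPM, horizontal axes) against DNAJA1, HSPA4, HSPB8 and HSP90AA1 (log2 CPM, vertical axes), with 1 point for each of the 41 pigs coloured by slaughter batch. Pearson's r is 0.81 for DNAJA1, 0.82 for HSPA4, 0.62 for HSPB8 and 0.35 for HSP90AA1.

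HSPH1 with DNAJA4, HSPD1 and HSPA8 gave r of 0.62, 0.53 and 0.49 and rho of 0.55, 0.44 and 0.43 (permutation p for r of 1e-05, 0.00046 and 0.00121, adjusted p of 3.5e-05, 0.00107 and 0.00242; for rho 0.00027, 0.00433 and 0.00537, adjusted 0.000756, 0.00866 and 0.0094). Without the 2 farthest pigs r was 0.55, 0.43 and 0.36. Within batches 2, 3 and 5, r was 0.49, 0.40 and 0.58 for DNAJA4 and 0.32, 0.69 and 0.70 for HSPA8. After removal of FCR, RIN, age, breed and batch, r was 0.44 for DNAJA4, 0.50 for HSPD1 and 0.61 for HSPA8. HSPH1 with HSPD1 had r of -0.03 in batch 2 and 0.78 in batch 3, so it did not hold in each batch. HSPH1 with HSP90AA1 gave r = 0.35 and rho = 0.36 (permutation p = 0.0247 and 0.0204, adjusted p = 0.0384 and 0.0286), with 0.48 without the 2 farthest pigs and 0.68, 0.77 and -0.35 within the batches. After removal of FCR, RIN, age, breed and batch, r of that pair was 0.65 over all pigs and 0.34 in batch 5.

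HSPH1 with DNAJB1, HSP90AB1, HSPA4L and HSPE1 gave r of 0.28, 0.19, 0.15 and 0.06 with adjusted permutation p of 0.0958, 0.261, 0.378 and 0.694. For rho the values were 0.34, 0.24, 0.25 and 0.04, with adjusted permutation p of 0.0385, 0.146, 0.136 and 0.809. HSPD1 and HSPE1, which encode the mitochondrial chaperonin and its lid and which lie 520 bases apart on chromosome 15 in the RefSeq annotation of Sscrofa11.1, gave r = 0.31 and rho = 0.37. With library size only, r was 0.47 for HSPH1 with DNAJB1, 0.64 with HSP90AB1, 0.41 with HSPA4L and 0.47 with HSPE1 (adjusted permutation p of 0.00225, 6.2e-05, 0.00856 and 0.00225), and 0.48 for HSPD1 with HSPE1. After removal of FCR, RIN, age, breed and batch, r of these HSPH1 pairs was 0.44, 0.42, 0.29 and 0.38 in the same order (adjusted permutation p of 0.00479, 0.00743, 0.0615 and 0.0152). For HSPD1 with HSPE1 it was 0.49. These pairs thus depended on the scaling and on the adjustment.

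The fourth comparison asked whether chaperone levels went with FCR, the trait of the study. edgeR called none of the 54 members at an FDR below 0.1, and it called 0% of all tested genes. At an unadjusted p under 0.05 there were 5 members, when 8.68% of all genes were at that level, and DESeq2 and limma called no member either. That number ran from 3 (batch as a trend) to 9 (without age) and 10 (library size only) under the other settings, in none of which a member was called. The 5 were DNAJA4 (0.20 ± 0.08 on the log2 scale per 0.1 of FCR, FDR 0.535), DNAJB1 (0.26 ± 0.12, FDR 0.551), HSPA13 (0.16 ± 0.07, FDR 0.555), HSPA12A (0.22 ± 0.11, FDR 0.573) and HSPE1 (-0.09 ± 0.04, FDR 0.563). DNAJC15, a mitochondrial DNAJ protein, was next with -0.09 ± 0.05 (FDR 0.578). Of these 6, DNAJA4, DNAJB1, HSPA13 and HSPA12A had positive coefficients, and none passed the test.

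A test of whether the FCR coefficient differed between the breeds called none of the 54 members by edgeR, with 4 at an unadjusted p under 0.05 (5.22% of all genes) and none called by DESeq2 or limma, which had 4 members each at that p. DNAJB6, which keeps aggregation-prone proteins soluble and is mutated in a muscular dystrophy, had the smallest p. In separate fits within each breed its FCR coefficient was -0.14 ± 0.06 in Duroc and 0.14 ± 0.06 in Landrace. The FCR by breed term added to the joint model was 0.26 ± 0.09 (FDR 0.922). Within Duroc none of 51 tested members was called by edgeR, with 3 at an unadjusted p under 0.05 (5.37% of all genes; 2 by DESeq2 and 4 by limma), and within Landrace none of 54, with 5 (5.50% of all genes; 6 by DESeq2 and 5 by limma). HSPA12A in Duroc had the smallest p, with 0.41 ± 0.13 per 0.1 of FCR and an FDR of 0.786.

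Age at sampling, in days, was the fifth term. No member was called by edgeR, against 1.76% of all genes, and 7 members had an unadjusted p under 0.05 (16% of all genes). HSPA12B was nearest to the threshold, with a coefficient of 0.05 ± 0.01 on the log2 scale per day (FDR 0.101), but with the sum of the strand columns it had 0.01 ± 0.01 (FDR 0.343). DNAJA2 (-0.02 ± 0.01, FDR 0.154), HSP90B1 (0.02 ± 0.01, FDR 0.168), HSPA12A (0.06 ± 0.02, FDR 0.189), DNAJB6 (-0.02 ± 0.01, FDR 0.211) and HSP90AB1 (-0.02 ± 0.01, FDR 0.223) came next. DESeq2 called 2 members and limma 1.

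The small heat shock protein HSPB6, abundant in muscle, was nearly absent from the counts: the pigs had 0 to 11 counts each (median 5) and 220 in all. The same files also give counts for each strand, and the sum of both strand columns was 1468828 for HSPB6, with 13941 to 131935 per pig (median 28455). LIN37 had 213 unstranded counts and 1468810 in the strand columns, and the excess of LIN37 matched that of HSPB6 pig by pig within 0.00116% in sum. In RefSeq, HSPB6 lies on chromosome 6 at 45181439 to 45184011, with LIN37 55 bases away. A pair that falls on genes of opposite strands is not counted in the unstranded column and is counted for one or the other gene in each strand column, so the low HSPB6 count is no measure of its expression, and in the strand columns the pairs of HSPB6 and LIN37 cannot be told apart.

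With the sum of the strand columns, HSPB6 read 888 to 2632 CPM in Duroc (median 1368) and 449 to 4100 CPM in Landrace (median 882). The ranges overlapped, with the median higher in Duroc. In the joint edgeR model of these sums, HSPB6 had a breed coefficient of -0.99 ± 0.28 (FDR 0.00771) and a RIN coefficient of -0.89 ± 0.20 (FDR 0.000340). It was not called for batch (FDR 0.234) or FCR (0.13 ± 0.11, FDR 0.707).

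HSPB1 held 400591 unstranded counts and 943573 in the strand columns. Its excess of 542982 was also that of an unnamed gene (ENSSSCG00000037567). With the sum, HSPB1 had a RIN coefficient of -0.92 ± 0.17 (FDR 3.98e-05), a batch FDR of 0.00316 and a breed coefficient of 0.59 ± 0.30 (FDR 0.135), so the calls were as with the unstranded counts. HSPA12B shared its excess with ADISSP, and in the sum its RIN coefficient of -0.40 ± 0.06 was called (FDR 3.18e-06). For HSP90AB1 the counts were 212229 and 317385, with the excess shared with SLC35B2, and the breed coefficient was 0.21 (FDR 0.0381). Of the 60 members, 47 had a ratio between both kinds of count within 0.05 of 1.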

How the data were processed

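Read pairs of 100 bases from unstranded libraries were trimmed by the authors with Trimmomatic 0.39 and aligned with STAR 2.7.1a to Sscrofa11.1 with Ensembl 96, and STAR counted uniquely mapped pairs for each gene. The deposited values are raw counts without regard to strand, with no filter or pooling. The deposited files also hold strand counts, used here in 1 added alternative. Rows that name no gene (unmapped, multimapping, no feature and ambiguous pairs) came to 19.1% to 30.1% of the sum of these rows and the counts on genes. They were left out.

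Genes passed filterByExpr (minimum count 10, minimum total 15). The model held breed, batch (5 levels), RIN, age and FCR and was fitted with the quasi-likelihood test of edgeR 4.0.16 (R 4.3.3, TMM, legacy form) with Benjamini-Hochberg values over 11146 genes. This follows the study's methods. DESeq2 1.42.0 and limma 3.58.1 with voom were alternatives. Log2 CPM used a prior count of 2. Correlations had 100000 permutations over all pigs without regard to batch, and all tests were two-sided. On simulated counts for this design, 7.59% (breed, 11129 genes), 8.92% (RIN, 11120 genes), 5.79% (age, 11130 genes) and 8.17% (FCR, 11120 genes) of calls were false. All 820 pairs of libraries differed beyond sampling noise (lowest chi-squared per degree of freedom 15.8). The models cover counting error and spread between pigs, and counts as low as those of HSPA1L limit precision.

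The members, lists and tests were chosen with earlier results of these data known. Members named with values were the 6 with the smallest p for each term, the heat-inducible and small heat shock protein lists, and those highest in level or spread; other called members and the values of the strand columns were named after their values were seen. Symbols came from the name table of Ensembl genes and positions from RefSeq (Sscrofa11.1). No sequence is printed, and no sequence table was used here. The notes on methods call FCR growth per feed, but the values can only be feed per growth.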

Additional observations from a re-analysis of the deposited data

Results flagged for a closer look

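Signal outside the unstranded counts was looked for in the strand columns, which the main comparisons did not use. In 7 members the summed strand columns held over 1.5 times the unstranded count, or held counts where the unstranded column had none. HSPB6 had 1468828 counts there over all pigs against 220, HSPB1 943573 against 400591, DNAJA4 46399 (1.72 times its unstranded count), HSPA12B 31304 against 7902, DNAJC17 6529 against 2209, DNAJC24 4827 (2.51 times) and HSPB9 130 against 0. For DNAJA4 the excess equalled that of SKIC8 in every pig, and for DNAJC17 it was within 0.255% of that of C15orf62. Over the 10643 genes with at least 1000 unstranded counts, 8.32% had a ratio above 1.5. Batches 3 and 4 were small enough for the test of a single pig far from the rest, and none of their 42 groups, for the 21 members called for batch, had one. Batches 2 and 5 held too many pigs for that test, so HSPB1 in Landrace replicate 1 of batch 2 (2093 CPM) was not covered by it. No member was called for a difference between the breeds in its FCR coefficient.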

How the results depend on the processing

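No paired analysis was possible because the replicate numbers only name pigs and each pig belongs to 1 breed. Under 11 alternative settings the breed coefficients of the 17 called members kept their sign. Counts for age moved from 0 to 2 with DESeq2, to 1 with limma, with RLE size factors, without the pigs with RIN below 7 and without the batch 1 pig, and to 3 with batch as a number; with single pigs left out they ran from 0 to 3, the highest without Duroc replicate 7. HSPA12B was called in each of these 6 settings, but its age coefficient was 0.0128 with the strand columns summed (FDR 0.343, no member called), against 0.05 with the unstranded counts. Counts for batch moved from 21 to 6 with batch as a number, and ran from 11 (without Landrace replicate 24) to 22 with single pigs left out. With single pigs left out, counts for breed ran from 11 (without Duroc replicate 5) to 19 and for RIN from 26 to 31. Under the other settings counts for breed ran from 13 (batch as a number) and 14 (without age) to 20 (library size only), and for RIN from 21 (without the pigs with RIN below 7) to 35 (library size only, and the strand columns summed). Counts for FCR stayed at 0 in all of these fits.

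With library size only, RIN coefficients reversed for DNAJC11 (0.12), DNAJC19 (0.11), DNAJB6 (0.10), DNAJA1 (0.0607), HSP90B1 (0.0530), DNAJB2 (0.0044) and DNAJA3 (0.0022), by the shift of the median of all genes from -0.01 to 0.30. Without Landrace replicate 1, DNAJA1 had a RIN coefficient of 0.02. With the strand columns summed, 35 of 55 members were called for RIN, and with no filter on low counts 14 for batch. Depth limits the low members, and 6 had too few counts to be tested.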
